A study of Mus musculus with 8 samples.

Results

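ATAC-seq peaks that were found in wild-type (WT) macrophages after KLA and in neither of the other conditions were examined. They are named KLA-only peaks here. The peaks were chosen by the sets of reproducible peaks that the authors listed for each merged peak: a member was in the KLA set and in neither the Veh set nor the RGFP966 + KLA set. Of 9698 merged peaks, 737 met this rule. For comparison, 1310 peaks were in the KLA and RGFP966 + KLA sets but not in the Veh set, 2908 were in the RGFP966 + KLA set only, and 800 were in the Veh set only. Since each set was called from the same libraries that give the tags below, differences of the KLA-only peaks between these 3 conditions are descriptions, and the calls given below for these comparisons are no independent test of them. The scores behind the sets are not used here, so no values just inside and just outside the threshold are given.

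Bone marrow-derived macrophages (BMDMs) were grown from WT C57BL/6 mice of 8 to 12 weeks and deprived of serum for 12 h. They then received vehicle (Veh) or KLA at 100 ng/mL for 6 h. In the third condition the HDAC3 inhibitor RGFP966, at a concentration that the methods write as 5 mM, was present from the start of serum deprivation, and KLA followed. Each condition had 2 libraries, made from 70000 cells a reaction. For the RGFP966 + KLA pair the sample titles name RGFP966, while the treatment entry names only KLA. A second table holds 2 Veh libraries of BMDMs with a floxed NCoR1 allele (NCoR f/f), made under another library date. The labels do not tell whether paired libraries stem from different mice or cultures, so the spread between them may be technical.

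KLA is the active lipid component of endotoxin and binds TLR4. TLR4 signaling releases NF-kB from its inhibitors and activates AP-1 and IRF factors and, through interferon, STAT factors. These act at promoters and enhancers of inflammatory genes together with the macrophage factors PU.1 and C/EBP. HDAC3 is a histone deacetylase that works with the corepressors NCoR and SMRT. ATAC-seq reads DNA that a transposase can reach, so more tags in a peak stand for more accessible DNA over the cells sampled, and fewer cells with an open site cannot be told apart from a less open site in each cell.

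Sequence is shown for 6 KLA-only peaks away from promoters, as examples of the motifs found in them and not as a typical sample. They are the named peaks with a motif match in an intron or between genes, those with an NF-kB match first and then those with the clearest difference between KLA and Veh. Each is 200 bp at the peak center on the plus strand of mm10, read 5′ to 3′, with matches to NF-kB, AP-1, IRF, PU.1 and C/EBP motifs in capitals and other motifs left in lower case. Cdc42ep2 (chr19:5930273-5930472, intergenic, 5556 bp upstream of the TSS) held 2 NF-kB matches, 1 of which also matched the NF-kB core. Zc3h12a (chr4:125124943-125125142, intron, 2839 bp from the TSS) and Klf4 (chr4:55651285-55651484, intergenic, 118909 bp upstream) held 1 NF-kB match each. Dpt (chr1:164669586-164669785, intergenic, 126978 bp upstream) and Ell2 (chr13:75754464-75754663, intron, 47079 bp from the TSS) held an AP-1 match, and Shisa3 (chr5:67633939-67634138, intron, 26155 bp from the TSS) held a C/EBP match.
Cdc42ep2: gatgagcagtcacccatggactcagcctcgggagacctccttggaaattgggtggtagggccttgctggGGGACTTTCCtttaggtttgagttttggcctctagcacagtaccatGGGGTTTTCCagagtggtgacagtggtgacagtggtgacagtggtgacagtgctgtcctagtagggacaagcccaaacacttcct
Zc3h12a: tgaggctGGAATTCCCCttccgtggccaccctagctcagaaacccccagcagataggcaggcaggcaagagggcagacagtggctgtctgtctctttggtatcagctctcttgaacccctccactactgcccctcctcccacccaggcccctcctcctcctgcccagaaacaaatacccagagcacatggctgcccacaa
Klf4: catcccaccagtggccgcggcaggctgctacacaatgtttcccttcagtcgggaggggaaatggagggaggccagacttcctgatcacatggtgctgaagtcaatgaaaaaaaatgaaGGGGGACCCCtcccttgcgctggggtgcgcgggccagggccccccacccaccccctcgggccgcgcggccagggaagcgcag
Dpt: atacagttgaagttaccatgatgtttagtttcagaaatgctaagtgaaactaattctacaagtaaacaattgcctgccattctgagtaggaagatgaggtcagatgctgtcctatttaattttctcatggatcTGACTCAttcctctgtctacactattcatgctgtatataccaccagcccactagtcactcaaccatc
Shisa3: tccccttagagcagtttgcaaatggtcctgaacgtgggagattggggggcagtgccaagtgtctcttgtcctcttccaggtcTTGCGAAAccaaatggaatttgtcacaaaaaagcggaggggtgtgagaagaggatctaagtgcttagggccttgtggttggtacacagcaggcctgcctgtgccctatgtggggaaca
Ell2: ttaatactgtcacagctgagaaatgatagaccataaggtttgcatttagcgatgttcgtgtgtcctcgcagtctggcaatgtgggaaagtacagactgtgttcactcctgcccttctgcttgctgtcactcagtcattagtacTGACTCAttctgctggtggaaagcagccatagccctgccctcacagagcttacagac

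The peaks were shallow. The WT libraries held 116733 to 202523 tags in peaks, which was 1.40% to 2.06% of all tags, and the NCoR f/f libraries 372367 and 509741. The first KLA library held 187022 tags in peaks and the second 116733, so levels are given below as tags per 100000 tags in peaks wherever libraries are averaged. Of 8 macrophage marker genes, 4 had a merged peak. Spi1, Adgre1, Lyz2 and Mertk had none, and the 1 promoter peak among them, that of Cd68, held 7 to 15 tags in the WT libraries. Of 29 marker genes of other cell types, 3 had a peak (Klrb1c, Kdr and Pdgfrb), and the promoter peak of the NK cell gene Klrb1c held 5 and 9 tags at Veh, 14 and 11 with KLA, and 15 and 22 with RGFP966 + KLA. The peaks at these few markers thus do not settle the cell type by themselves.

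The KLA-only peaks held 5419 and 4936 tags at Veh, 11716 and 7858 after KLA, and 8293 and 7611 after RGFP966 + KLA. These were 4.20% and 4.08%, 6.26% and 6.73%, and 4.09% and 3.92% of the tags in peaks. The median KLA-only peak held 7 and 6 tags at Veh, 15 and 10 with KLA, and 10 and 10 with RGFP966 + KLA. On the scale of tags per 100000, the medians were 5.43 and 4.95, 8.02 and 8.57, and 4.94 and 5.15. The KLA libraries were the high pair, and the RGFP966 + KLA libraries lay at the Veh level.

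**Figure D1:**
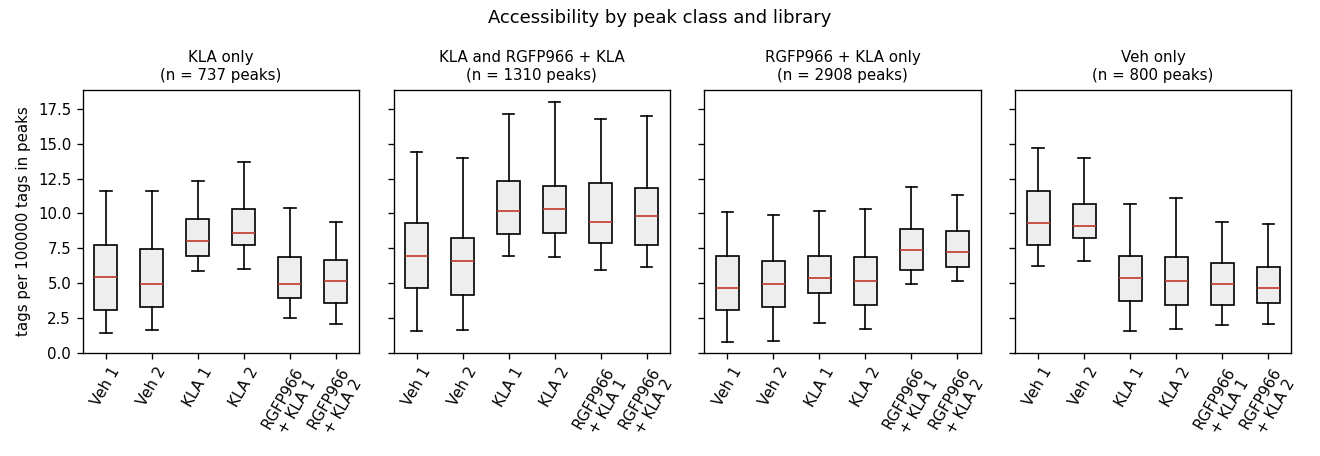
Tags per 100000 tags in peaks (y axis) in the 6 WT libraries (x axis) for 4 classes of peaks named by the sets they were in. Boxes span the quartiles, the line is the median and whiskers reach the 5th and 95th percentiles over peaks. For KLA-only peaks the medians are 8.02 and 8.57 with KLA and between 4.94 and 5.43 in the other libraries.

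By the log2 difference of mean tags per 100000, with 1 added, the median KLA-only peak was 0.56 higher with KLA than at Veh, 0.61 lower with RGFP966 + KLA than with KLA (a log2 difference of -0.61), and differed by -0.03 between RGFP966 + KLA and Veh. Over all merged peaks these medians were 0.02, 0.04 and 0.04. The median of RGFP966 + KLA against Veh turned positive when libraries were scaled by all their tags, to 0.08 in the fitted log2 fold changes against -0.04 with tags in peaks. That scaling moved the median of all peaks to 0.21 for RGFP966 + KLA against KLA and to 0.14 for RGFP966 + KLA against Veh.

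Both KLA libraries lay above both Veh libraries at 449 of the 737 KLA-only peaks (60.9%), against 25.3% of all merged peaks. Both lay above both RGFP966 + KLA libraries at 535 (72.6%), against 20.1%. At 361 peaks (49.0%, against 8.61% of all peaks) they lay above all 4 other libraries. The rule sets these counts in part, and nothing is read from them beyond their size.

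The name of the class covered differences of very unequal size. The mean KLA level was more than 2 times the mean Veh level at 236 of the 737 peaks, under 1.5 times at 346, and not above it at 70. Ssfa2, at an intron peak, was among the KLA-only peaks with the highest KLA level and held 28 and 27 tags at Veh, 34 and 19 with KLA, and 18 and 14 with RGFP966 + KLA. Per 100000 tags it had 21.7 and 22.3 at Veh and a KLA mean of 17.2, so that it was lower with KLA. Khsrp, which encodes an RNA-binding protein of mRNA decay, had at its promoter 28 and 27 tags at Veh, 37 and 18 with KLA, and 40 and 32 with RGFP966 + KLA.

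**Figure D2:**
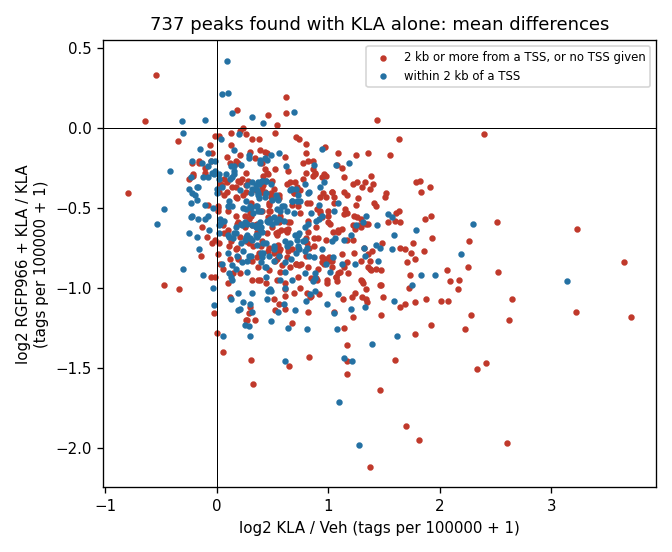
Each point is 1 of the 737 KLA-only peaks. The x axis is the log2 difference of mean tags per 100000 (with 1 added) of KLA over Veh and the y axis that of RGFP966 + KLA over KLA, with colors for the distance to the TSS. Points at or left of 0 on the x axis are the 70 peaks not higher with KLA than at Veh, and 17 peaks lie above 0 on the y axis.

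With edgeR's quasi-likelihood test over all merged peaks (Benjamini-Hochberg adjusted p under 0.05 and a fold change over 2), 77 KLA-only peaks were called higher with KLA than at Veh (10.4% of them, against 3.30% of all peaks), and 0 were called lower (against 1.73%). Between RGFP966 + KLA and KLA, 8 were called lower (1.09%, against 0.103%) and 0 higher (against 0.237%). Between RGFP966 + KLA and Veh, 14 were called higher (1.90%, against 6.89%) and 9 lower (1.22%, against 2.99%). At an unadjusted p under 0.05, edgeR had 239, 256 and 92 KLA-only peaks in these 3 comparisons. DESeq2 called 0 KLA-only peaks in each. With its own size factors it called 0 peaks of any class, with a smallest adjusted p of 0.081 for KLA against Veh, and had 80, 30 and 19 KLA-only peaks at an unadjusted p under 0.05. With total tags in peaks as size factors it called 1 peak of another class, higher with RGFP966 + KLA than at Veh. The dispersion was 0.0052 in edgeR (common) and 0.125 in DESeq2 (median), and the calls differed between the tools. The rule used these libraries and favors peaks higher with KLA than in both other conditions, so nothing is read from the shares called or from the counts of 0.

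The replicates of the 3 conditions differed unequally at these peaks. The levels of the 2 libraries differed more than 2-fold at 215 KLA-only peaks at Veh (29.2%), at 21 with KLA (2.85%) and at 150 with RGFP966 + KLA (20.4%). Over all merged peaks the shares were 16.7%, 12.9% and 5.56%. These shares depend on tag numbers, since counting error is larger at fewer tags. At Veh the median was 7 and 6 tags at KLA-only peaks and 11 and 10 at all peaks. The mean squared replicate difference was also scaled so that counting error alone gives 1. It was 1.19 at Veh, 0.592 with KLA and 1.44 with RGFP966 + KLA at KLA-only peaks. Over all merged peaks it was 1.07, 1.08 and 0.946. Reproducible peaks are kept where 2 replicates rank a peak alike, so agreement between replicates took part in the choice of the peaks. Its part in the absence from the Veh and RGFP966 + KLA sets was not tested. At the Klf4 peak, for instance, the RGFP966 + KLA libraries held 30 and 13 tags and the KLA libraries 22 and 12.

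Of the gene lists examined, that of NF-kB subunits and inhibitors had the highest share of KLA-only peaks. Of 28 merged peaks assigned to its genes, 9 were KLA-only (32.1%), and both KLA libraries lay above both Veh libraries at 8 of the 9. They were assigned to Nfkb1 (4 peaks), Nfkbia (2 peaks), Nfkbiz, Bcl3 and Ikbkb. Of all merged peaks 7.60% were KLA-only, and both KLA libraries lay above both Veh libraries at 60.9% of the KLA-only peaks. The lists were chosen with results of these data known, and their shares, most of which rest on a few peaks, are descriptions to be read beside the 7.60%.

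Nfkb1 encodes the p105 precursor of the NF-kB subunit p50, and 4 of the 5 merged peaks assigned to it were KLA-only. The intron peak 19029 bp from the TSS (chr3:135672386-135672650) held 1 and 1 tags at Veh, 13 and 15 with KLA, and 2 and 5 with RGFP966 + KLA. KLA was at least 4.12-fold higher than Veh, taking 3 tags in each Veh library as the floor, and the fitted log2 fold change of RGFP966 + KLA against KLA was -2.33 ± 0.49 (SE, n = 2 libraries each). Neither Veh nor RGFP966 + KLA libraries overlapped the KLA libraries.

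The intergenic peak 28568 bp upstream held 3 and 1 tags at Veh, 11 and 13 with KLA, and 7 and 7 with RGFP966 + KLA. An intron peak 84184 bp from the TSS held 2 and 4, 16 and 10, and 7 and 12 tags in the same order. At both, RGFP966 + KLA lay between Veh and KLA per 100000 tags. The promoter peak, 58 bp from the TSS, held 3 and 8 tags at Veh, 17 and 10 with KLA, and 13 and 10 with RGFP966 + KLA. The remaining Nfkb1 peak, in an intron 51179 bp from the TSS, was in the KLA and RGFP966 + KLA sets and held 0 and 0, 18 and 13, and 16 and 17 tags.

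**Figure D3:**
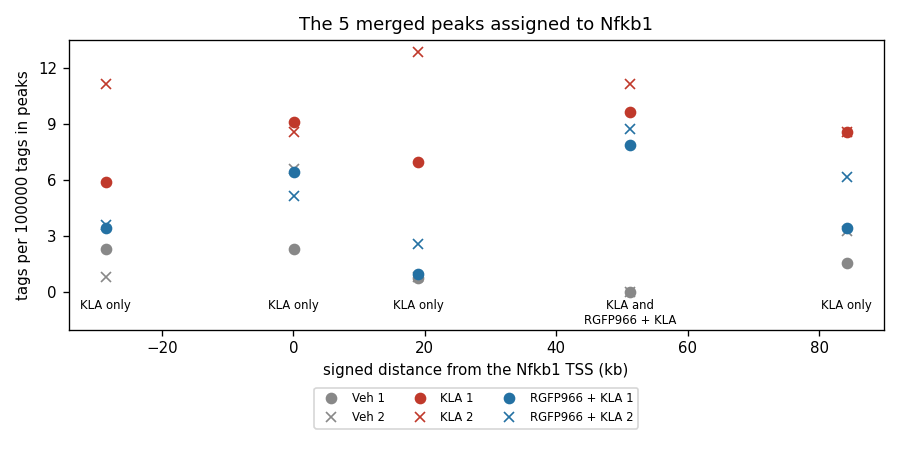
Tags per 100000 tags in peaks (y axis) at the 5 merged peaks assigned to Nfkb1, placed by signed distance from its TSS in kb (x axis), with 1 symbol per library. Of the 5 peaks, 4 were KLA-only, and at the peak 19.0 kb from the TSS the RGFP966 + KLA libraries lie near the Veh libraries.

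Nfkbia encodes IkBa, the inhibitor that holds NF-kB in the cytoplasm. Its promoter peak, 125 bp upstream of the TSS, held 10 and 5 tags at Veh, 15 and 19 with KLA, and 14 and 17 with RGFP966 + KLA. The means per 100000 were 5.94, 12.1 and 7.83, with a fitted log2 fold change of 0.89 ± 0.44 for KLA against Veh (SE, n = 2 each). An intergenic peak 25619 bp from the TSS held 6 and 6, 18 and 10, and 15 and 6 tags. Nfkbiz, which encodes a nuclear IkB protein, had an intergenic peak with 8 and 6, 15 and 10, and 11 and 9 tags. The peaks of Ikbkb, a kinase that marks IkB for degradation, and of Bcl3, a nuclear IkB protein, held 4 and 5, 12 and 10, and 16 and 8 tags, and 9 and 11, 18 and 8, and 16 and 9 tags. The Bcl3 peak differed little between KLA and Veh (log2 fold change 0.10 ± 0.42, SE).

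In the TLR4 pathway, 4 of 41 merged peaks were KLA-only (9.76%, near the 7.60% of all peaks), at Map3k7, Irak2, Tank and Mapk3. Map3k7 encodes the kinase TAK1, and its promoter peak held 14 and 11 tags at Veh, 33 and 13 with KLA, and 26 and 18 with RGFP966 + KLA. Irak2 encodes a kinase of the TLR adaptor complex, with 13 and 6, 17 and 14, and 15 and 9 tags at its promoter. Their log2 fold changes of KLA against Veh were 0.59 ± 0.36 and 0.42 ± 0.42 (SE). The peak assigned to Tank, an adaptor of TRAF and TBK1 signaling, lay 264659 bp upstream and held 3 and 6, 10 and 13, and 6 and 9 tags, with a log2 fold change of 1.06 ± 0.52. Both KLA libraries lay above the other 4 there per 100000 tags.

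Among inflammatory effectors, 5 of 27 merged peaks were KLA-only (18.5%), at Upp1, Cd69, Cd86, Gsdmd and Edn1. Upp1, which encodes uridine phosphorylase, had an intron peak with 0 and 0 tags at Veh, 13 and 20 with KLA, and 11 and 8 with RGFP966 + KLA. KLA was at least 5.01-fold higher than Veh there. Cd69, which encodes an early activation antigen, had a promoter peak with 2 and 1, 16 and 11, and 9 and 10 tags, at least 3.74-fold higher with KLA. Both peaks had intermediate levels with RGFP966 + KLA. At Cd86, which encodes a costimulatory ligand, the intron peak held 8 and 10, 17 and 8, and 5 and 8 tags, and the log2 fold change of KLA against Veh was 0.19 ± 0.43.

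Interferon-stimulated genes had 4 KLA-only peaks of 17 (23.5%), at Oas3, Gbp2, Isg20 and Zbp1. The promoter of Gbp2, a guanylate-binding GTPase, held 2 and 2 tags at Veh, 17 and 8 with KLA, and 11 and 8 with RGFP966 + KLA. That of Isg20, an antiviral exonuclease, held 2 and 1, 17 and 7, and 7 and 7 tags. These were at least 3.32-fold and 3.14-fold higher with KLA. None of the 14 merged peaks at IRF and STAT factor genes was KLA-only, nor any of the 21 at LXR, SREBP and lipid genes, counts too small to set against the 7.60% of all peaks.

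Chemokine genes had 2 KLA-only peaks of 18 and cytokine genes 2 of 34. A peak 9387 bp upstream of Cxcl1, which encodes a neutrophil chemoattractant, held 5 and 8 tags at Veh, 13 and 11 with KLA, and 10 and 7 with RGFP966 + KLA. The promoter of Ccl24, an eosinophil chemokine, held 6 and 3, 10 and 10, and 6 and 5 tags. An intron peak of Il15 held 5 and 2, 12 and 8, and 6 and 7 tags. The peak assigned to Il1b, the precursor of interleukin-1 beta, lay 2321 bp upstream and held 8 and 11, 19 and 7, and 15 and 10 tags, with groups that overlapped.

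AP-1 and related factors had 3 KLA-only peaks of 28, at Junb, Jdp2 and Batf2. Both KLA libraries lay above both Veh libraries at all 3, as with 3 and 5, 13 and 9, and 13 and 10 tags at Batf2. Feedback genes had 5 of 55. The intron peak of Zc3h12a, which encodes the mRNA-degrading enzyme regnase-1 and holds the NF-kB match shown above, had 3 and 4 tags at Veh, 27 and 8 with KLA, and 11 and 17 with RGFP966 + KLA. A peak at Pde4b, a cAMP phosphodiesterase, held 7 and 5, 20 and 15, and 21 and 10 tags.

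Of the other lists, macrophage lineage genes had 5 KLA-only peaks of 58, adhesion and migration genes 7 of 67, glycolysis and hypoxia genes 2 of 26, corepressor complex genes 1 of 14 (the Hdac2 promoter), and markers of other cell types 1 of 6 (Pdgfrb). Both KLA libraries lay above both Veh libraries at 2 of the 5 macrophage lineage peaks, Ets2 among them. The Klf4 peak held 14 and 11 tags at Veh, 22 and 12 with KLA, and 30 and 13 with RGFP966 + KLA. The Cd68 promoter held 7 and 13, 13 and 11, and 15 and 11 tags. Their log2 fold changes of KLA against Veh were 0.16 ± 0.39 and -0.02 ± 0.43 (SE). The promoter of Ets2, which encodes an ETS factor, held 6 and 6 tags at Veh, 12 and 14 with KLA, and 7 and 6 with RGFP966 + KLA. That of Egln3, an oxygen-sensing prolyl hydroxylase, held 3 and 3, 18 and 10, and 9 and 14 tags. At Eno1, a glycolytic enzyme, the promoter held 13 and 10, 24 and 18, and 12 and 15 tags.

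The 10 peaks with the smallest p-value for higher tags with KLA than at Veh were mostly away from promoters. So were KLA-only peaks in general, of which 32.8% were at promoters. The promoter peak of Snapc2 was among the 10, with 0 and 0 tags at Veh, 18 and 7 with KLA, and 8 and 6 with RGFP966 + KLA. Rasgrp1, which encodes an activator of Ras, had an intron peak with 2 and 1 tags at Veh, 22 and 16 with KLA, and 10 and 12 with RGFP966 + KLA. Rbbp8, which encodes a DNA repair factor, had an intron peak with 1 and 1, 30 and 18, and 16 and 10 tags, and KLA was at least 6.55-fold higher than Veh. An intergenic peak nearest Pole4 held 0 and 0, 24 and 12, and 15 and 9 tags. At the peaks shown by sequence, Cdc42ep2, with its 2 NF-kB matches, held 1 and 1, 17 and 11, and 12 and 11 tags, Dpt 0 and 0, 17 and 9, and 9 and 11, Ell2 1 and 1, 19 and 10, and 8 and 10, and Shisa3 0 and 1, 16 and 8, and 5 and 6.

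Over the whole class, 68 KLA-only peaks had 3 tags or fewer in both Veh libraries, and 4 had 0 in both. Their lower bounds ranged from 2.07-fold to 6.55-fold, with a median of 3.41-fold. Only 1 KLA-only peak had 3 tags or fewer in both RGFP966 + KLA libraries. Those libraries were deeper, with 202523 and 194208 tags in peaks against 128949 and 121106 at Veh. The limit of 3 tags is therefore a lower level there, and the 68 and the 1 cannot be compared directly. The same counts over all merged peaks were not made. Of the 236 peaks with a KLA mean more than 2 times the Veh mean, 214 had an RGFP966 + KLA mean above the Veh mean and 235 had one below the KLA mean. Their median levels per 100000 tags were 2.33 and 2.89 at Veh, 8.56 and 8.57 with KLA, and 4.44 and 4.63 with RGFP966 + KLA. These 236 were picked for low Veh and high KLA tags, which places the RGFP966 + KLA values between them in part by the choice itself, so the order is a description.

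The clearest differences between RGFP966 + KLA and KLA were at Tor1aip1, Atp1b3, Zswim2, Spink13 and the Nfkb1 intron peak. The promoter peak of Tor1aip1, which encodes a nuclear membrane protein, held 6 and 9 tags at Veh, 28 and 20 with KLA, and 3 and 10 with RGFP966 + KLA. Its fitted log2 fold changes were 1.39 ± 0.40 between KLA and Veh and -2.24 ± 0.41 between RGFP966 + KLA and KLA (SE, n = 2 each). The Atp1b3 peak, in an LTR element, held 3 and 3, 20 and 11, and 2 and 6 tags. At both, the RGFP966 + KLA mean was below the Veh mean, with fitted log2 fold changes of -0.86 ± 0.55 and -0.24 ± 0.72 (SE). At Zswim2 and Spink13 these were -1.19 ± 0.83 and -0.23 ± 0.88, and at the Nfkb1 intron peak 1.07 ± 0.94. The 5 were picked by the comparison of RGFP966 + KLA with KLA, which favors low RGFP966 + KLA tags. Nothing is read from their order against Veh.

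**Figure D4:**
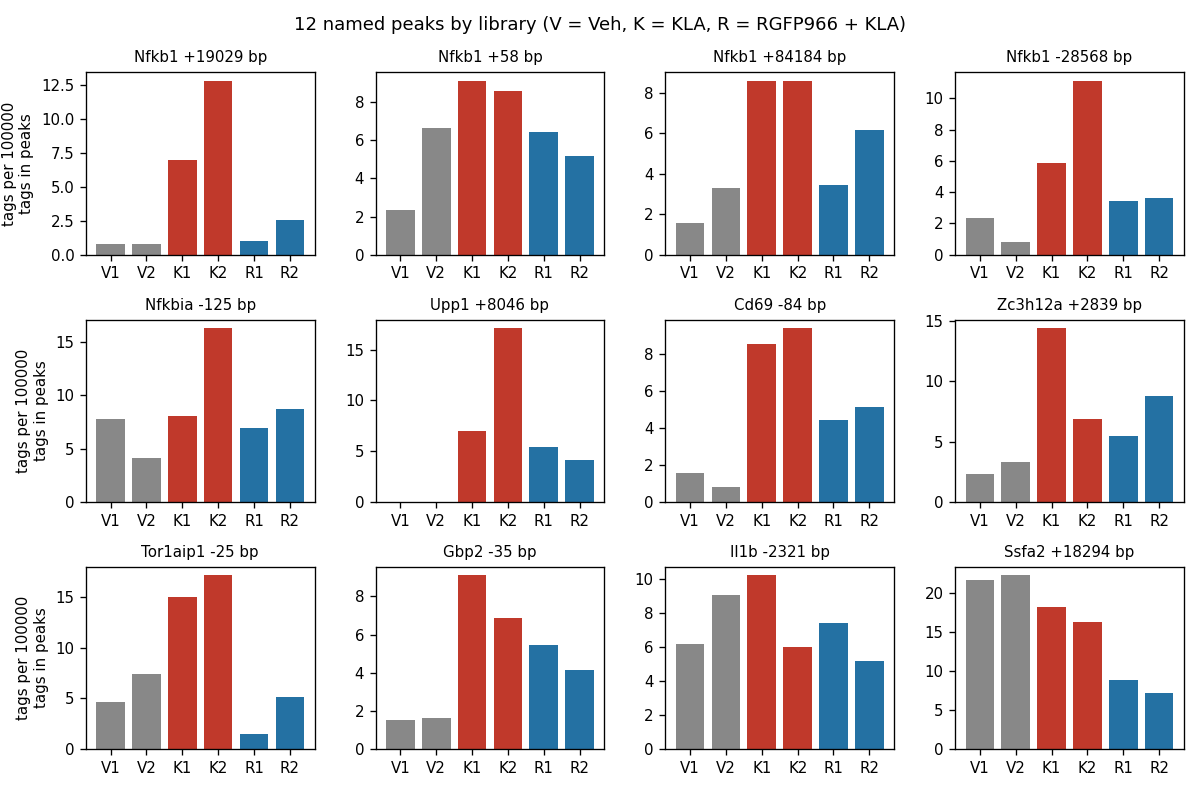
Tags per 100000 tags in peaks (y axis) in each WT library (x axis: V, Veh; K, KLA; R, RGFP966 + KLA; 1 and 2 are replicates) at 12 of the named KLA-only peaks, titled by gene and signed distance from the TSS. Each bar is 1 library and each panel has its own scale from 0. Levels at Nfkb1 +19029 and Tor1aip1 are high only in the KLA libraries, while at Ssfa2 the Veh libraries are highest.

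Some KLA-only peaks were on unplaced scaffolds or clustered at 1 gene. Whether their tags were shared with near-identical copies elsewhere was not tested, and their values are given as uncertain. Pisd-ps3 had 6 KLA-only peaks on 1 unplaced scaffold, among 97 merged peaks assigned to it, and 11 KLA-only peaks in all were on such scaffolds. The 2 Sfi1 intron peaks, with 21 and 40 tags at Veh, 48 and 42 with KLA, and 39 and 48 with RGFP966 + KLA at 1 of them, were among the 10 highest. The neighboring genes 6430706D22Rik and A730008H23Rik had 3 KLA-only peaks each, with log2 fold changes of KLA against Veh between 0.22 and 0.77.

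In position, KLA-only peaks were farther from genes' starts than merged peaks in general. A TSS lay less than 2 kb away for 306 of the 732 with a distance (41.8%), against 51.0% of all merged peaks, 44.2% of peaks in the KLA and RGFP966 + KLA sets, 47.4% of Veh-only peaks and 36.3% of RGFP966 + KLA-only peaks. By annotation, 242 were at promoters (32.8%), 256 in introns (34.7%) and 193 between genes (26.2%). The 426 peaks away from a TSS had a median log2 difference between KLA and Veh of 0.71 and the 306 near one of 0.41. Over all merged peaks these medians were 0.12 and -0.05, so the larger value away from a TSS was not particular to KLA-only peaks. The difference between RGFP966 + KLA and KLA was alike, at -0.63 and -0.60, and the rule sets it in part. Of the 236 peaks over 2-fold, 58 (24.6%) were within 2 kb of a TSS. The same share among all merged peaks over 2-fold was not counted.

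Motif matches were counted in 200 bp at the center of the 726 KLA-only peaks on the main chromosomes, on both strands. AP-1 (TGANTCA) was in 29.2% of the KLA-only peaks away from a TSS, against 32.6% of all such peaks, 35.8% of those in the KLA and RGFP966 + KLA sets and 21.6% of Veh-only peaks. The broad NF-kB motif was in 5.94%, against 6.10%, 9.97% and 1.92%. The NF-kB core (GGANTTTCC), which overlaps the broad motif where a G precedes it, was in 2.38%, against 2.27%, 4.49% and 0.24%. Away from a TSS, the KLA-only peaks thus held these motifs at shares near those of all peaks.

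Within 2 kb of a TSS the broad NF-kB motif was in 20 of 305 KLA-only peaks (6.56%), against 3.75% of all such peaks. AP-1 was in 27 (8.85%), against 4.61%. In peaks of the KLA and RGFP966 + KLA sets these 2 shares were 4.52% and 6.96%. They were 4.48% and 6.48% in RGFP966 + KLA-only peaks, and 2.39% and 3.99% in Veh-only peaks. Away from a TSS, C/EBP (TTGCNNAA) was in 18.8% of KLA-only peaks, IRF (GAAANNGAA) in 9.26% and PU.1 (GAGGAAGT) in 12.6%. The shares were 16.3%, 8.31% and 12.1% of all such peaks, and 14.7%, 8.17% and 13.7% of Veh-only peaks, so PU.1 and IRF lay near both. When whole peaks were searched, C/EBP was in 20.2% of these KLA-only peaks, near the 19.5% of all such peaks. It was then in 21.3% of those in the KLA and RGFP966 + KLA sets and 17.3% of Veh-only peaks. Over both positions and in the 200 bp, the GC box (GGGGCGGG) was in 87 of the 726 (12%), against 17.9% of all peaks. The median GC content was 53.0%, against 56.5%. These pooled values depend in part on the smaller share of KLA-only peaks near a TSS. Near a TSS the GC box was in 26.6%, against 32.1%, and the median GC content was 64.5%, against 65.5%. Away from a TSS the values were 1.43%, against 2.94%, and 48%, against 49%. A match is a stretch of letters and not a bound site.

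The NCoR f/f libraries did not enter the rule. Of the 737 KLA-only peaks, 692 (93.9%) overlapped a merged peak of the NCoR f/f table, against 95.1% of all WT peaks. That table lists which of its peaks were in the Veh and KLA sets of NCoR f/f cells. By their names, sets of NCoR knockout cells were merged into it too. Of the 692, 20 (2.89%) were in neither NCoR f/f set, against 2.59% of all overlapping WT peaks. Of the 692, 633 (91.5%) were in the KLA set of those cells, against 91.3% of all overlapping WT peaks. In the Veh set were 466 (67.3%), against 82.1%, and 206 (29.8%) were in the KLA set and not in the Veh set, against 15.3%. So most KLA-only peaks were also found at Veh in the deeper NCoR f/f libraries. The share in the KLA but not the Veh set was 21.5% for peaks in the KLA and RGFP966 + KLA sets, 28.3% for RGFP966 + KLA-only peaks and 9.90% for Veh-only peaks. These shares were not tested.

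**Figure D5:**
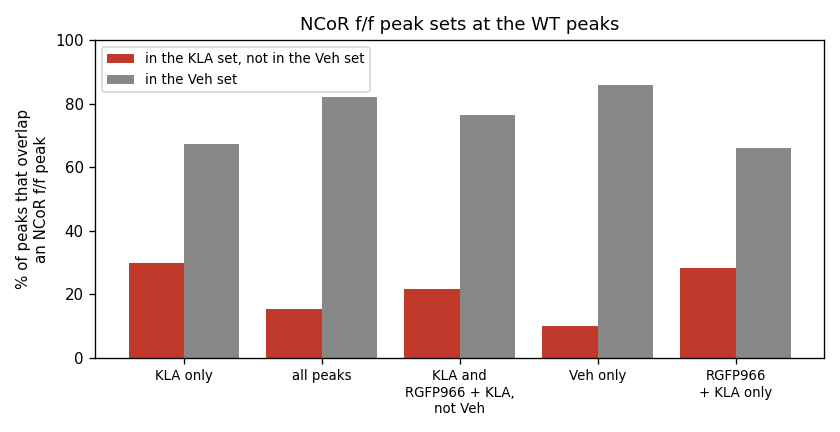
Percent of WT peaks overlapping a merged peak of the NCoR f/f table (y axis) that were in the NCoR f/f KLA set but not its Veh set, or in its Veh set, by WT peak class (x axis). Of the KLA-only peaks 29.8% and 67.3% fall in these groups, against 15.3% and 82.1% of all peaks.

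Away from a TSS, 156 of 388 overlapping KLA-only peaks (40.2%) were in the NCoR f/f KLA set and not its Veh set, against 24.3% of all such WT peaks. Near a TSS they were 50 of 300 (16.7%), against 7.47%. The share was thus higher away from a TSS among all WT peaks as well. The 206 peaks had a median log2 difference between KLA and Veh of 1.07 in the WT libraries, and both KLA libraries lay above both Veh libraries at 175 of them (85.0%). The 466 in the NCoR f/f Veh set had a median of 0.39, with 225 (48.3%) separated. The medians of RGFP966 + KLA against KLA were -0.73 and -0.59. In the WT libraries the median KLA difference was larger at the 206 peaks than at the 466. The rule used these WT tags and favors peaks lower with RGFP966 + KLA than with KLA. All WT peaks were not split in this way, so nothing is read from these values beyond their size. In the NCoR f/f Veh libraries the 206 peaks had median tags of 7 and 10 and the 466 had 17 and 24.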

How the data were processed

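ATAC-seq tables of 6 WT and 2 NCoR f/f BMDM libraries were used. By the methods, the authors used Bowtie2 for mapping (mm10) and HOMER for peaks, retained those reproducible by the irreproducible discovery rate (IDR) and merged the sets of the conditions. The deposited values are counts of raw tags per merged peak and library, whole numbers without normalization. Set names, annotation, distance to the TSS and assigned gene were taken from the authors' tables, and no column of a sample was left unused. The KLA-only peaks and the gene lists were chosen with earlier results of these data known.

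The quasi-likelihood test of edgeR 4.0.16 (R 4.3.3) was run over the 9698 WT peaks, each of which reached 4 tags in 1 library or more. The 6 WT libraries shared 1 model without covariates, with total tags in peaks as library size. Calls needed a Benjamini-Hochberg adjusted p under 0.05 and a change of more than 2-fold. DESeq2 1.42.0 was an alternative. Both were tested on tags simulated at edgeR's common dispersion of 0.0052. That check does not cover the larger dispersion that DESeq2 estimated from the real tags. SE is the log2 fold change divided by the root of the F statistic. Peaks within 2 kb of a TSS were counted as near it. Overlap with the NCoR f/f table required 1 bp. Motifs were read from RefSeq's GRCm38.p6 sequence and the search was checked on planted motifs.

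Named peaks are the 10 with the highest KLA mean, the 10 with the smallest p-value for higher tags with KLA, up to 3 per gene list, those of genes with 3 or more, and the 5 with the smallest p-value for RGFP966 + KLA against KLA. They came to 66, of which those that a result turns on are described. Klf4, Ssfa2 and Khsrp are among them, and the Bcl3, Ikbkb and Nfkbiz values complete a list of 9 and were added after values were seen, as was the order in which sequences were taken. Same-numbered libraries were not paired by the labels. The alternatives were TMM factors, loess offsets, all tags as library size, DESeq2 with 2 kinds of size factors, filters of 0 and 16 tags, only the 4 libraries compared, a replicate block, a fold of 1.5, each library left out, 1 kb around the TSS, an overlap of 50% and whole peaks for motifs. Depth limits precision: at a median of 6 to 15 tags a peak, counting error alone is large.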

Additional observations from a re-analysis of the deposited data

How the results depend on the processing

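Counts of called KLA-only peaks depended on the processing. With all tags as library size, 50 were called gained with KLA, 5 lower with RGFP966 + KLA than KLA, and 15 changed between RGFP966 + KLA and Veh, against 77, 8 and 23. A filter of 16 tags left 44, 3 and 10, and DESeq2 called 0 in each with either kind of size factors. With loess offsets 57 were called lower with RGFP966 + KLA than KLA, the 8 included, and over all peaks that comparison had 23 higher and 65 lower calls, against 23 and 10. For RGFP966 + KLA against Veh the KLA-only calls split into 14 higher and 9 lower, 7 and 19 with loess offsets, and 13 and 2 with all tags. The cause was not tested. Leaving out 1 library gave 23 to 59, 0 to 14, and 6 to 24 calls. Gained calls were 23 and 31 without Veh replicate 1 and 2, and 30 and 50 without KLA replicate 1 and 2. With the replicate number as a block, 87, 12 and 24 were called. Replicate differences of 2 conditions correlated at 0.0155 to 0.0234 over peaks. At so few tags a peak, counting error would keep such correlations small, so they do not decide whether the numbers mark a pairing. Both KLA libraries lay above both Veh libraries at 369 peaks, and above both RGFP966 + KLA libraries at 404, with all tags as library size. With 1 kb 277 peaks were near a TSS, and with an overlap of 50% 616 overlapped an NCoR f/f peak.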
